A study of Crocodylus porosus with 60 samples.

Results

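The smooth muscle miRNA miR-145 (cPor-miR-145 in the table) and the mesenchymal miRNAs miR-199-5p (cPor-miR-199-5p) and miR-214-5p (cPor-miR-214-5p) were followed over the tissues of hatchling saltwater crocodiles (Crocodylus porosus). They were chosen by name, as 3 of the 654 rows of the deposited small RNA table, whose names carry the prefix cPor for the species. In the table, 509 rows carry an N and a number in place of a family name. It holds 1 value for each of 15 libraries, with 4 from testis and 2 from each of brain and heart, while stomach, small intestine, liver, spleen, cloaca, tongue and jaw skin have a single library. No treatment was given to any animal. The column headers name 2 testis libraries, 1 heart and 1 brain library as from runts (386.2 ± 23.6 mm, SD, at 359 days) and as many as from normal hatchlings (740.2 ± 73.5 mm at 373 days), all raised alike. The size class of the other 7 libraries is not named. Nothing in the labels says that libraries of 1 tissue and size class came from separate animals, so the spread between them may be technical.

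In mammals, miR-145 is transcribed together with miR-143 and is abundant in the contractile smooth muscle of vessels and hollow organs, where the pair helps to keep the cells differentiated. miR-199 and miR-214 are transcribed together, in mouse from a long RNA antisense to an intron of the dynamin gene Dnm3, and are known from mesenchyme, fibroblasts and developing skeleton. A tissue level of such a miRNA can differ through the share of cells of a type or through the amount per cell, and in bulk tissue these cannot be told apart. Levels are in RPM, a unit in which each library's reads are brought to one total. A read stands for a whole small RNA, so RPM is not divided by length, but how well each sequence is captured was not measured. Ratios between miRNAs are therefore read between libraries and not as ratios of molecules. Sequences and genome positions were not analysed here.

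The libraries held between 540000 and 4760000 reads, estimated from the step between low values. In brain, heart, tongue and testis, markers stood where the labels put them. The marker lists were chosen with earlier results of these data known, so this is not an independent check. The 11 rows of neuronal families summed to 79482 and 78569 RPM in the brain libraries and to at most 8836 RPM elsewhere. The 8 striated muscle rows summed to 64459 and 62118 RPM in heart and 15382 RPM in tongue. They also reached 8754 RPM in stomach and 4327 RPM in small intestine, and at most 3520 RPM in the remaining libraries. miR-202-5p, a gonad miRNA, had 110.1 to 434.9 RPM in testis and at most 0.37 RPM elsewhere. Some testis libraries also held miRNAs of other organs. The first runt library had 3520 RPM of striated muscle rows, and the second had 3152 RPM of the liver miRNA miR-122-5p and the 8836 RPM of neuronal rows. One row, miR-N444, took 60.01% of all RPM in the second normal testis library and 26.5% to 34.4% in the other testis libraries, which lowers the RPM of every other row there.

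The members were found in every library, from 111 RPM of miR-214-5p in a brain library to 107486 RPM of miR-145 in stomach. miR-145 was the eighth most abundant row by the mean over tissues (24203 ± 34556 RPM, SD over 10 tissues). miR-199-5p ranked 40th (2473 ± 1399 RPM) and miR-214-5p 56th (1303 ± 816 RPM). Between its highest and lowest tissue miR-145 differed 78.3-fold, miR-214-5p 21.1-fold and miR-199-5p 15.1-fold.

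miR-145 was highest in the gut. It had 107486 RPM in stomach (95% Poisson interval on the estimated reads 106976 to 107998) and 62441 RPM in small intestine (61949 to 62937). It was the third and the fifth most abundant row of those libraries, with 14.3% and 8.45% of the listed reads. Spleen followed with 27630 RPM. The 4 testis libraries had 13465 and 6383 RPM in the normal hatchlings and 12933 and 18828 RPM in the runts (12902 ± 5097, SD, n = 4), and heart had 3800 RPM in the normal and 15606 RPM in the runt library. Liver had 8356 RPM, tongue 6275 RPM and cloaca 3079 RPM. The brain libraries had 2980 RPM (normal) and 2580 RPM (runt), and jaw skin was lowest with 1372 RPM (1275 to 1475). Both gut libraries were thus above every other library, and the lower end was shared by jaw skin, brain, cloaca and the normal heart library. The intervals cover counting error only, and the single-library tissues have no replicate check.

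The order of the tissues can be read only roughly, and no step between neighbours was tested. Libraries of 1 tissue differed with a pooled SD of 0.82 on the log2 scale for miR-145, and 5 of the 9 steps between neighbouring tissues were smaller than that. Testis, heart and brain each mix runt and normal libraries, so for every member this spread includes any difference by size class. Steps larger than this spread lay between small intestine and spleen (1.18 log2), spleen and testis (1.10), tongue and cloaca (1.03) and brain and jaw skin (1.02). The steps from stomach to small intestine, testis to heart, heart to liver, liver to tongue and cloaca to brain were smaller than it. This order is that in RPM. After scaling, and as a share of the listed reads without miR-N444, cloaca and not brain was second lowest. The pooled SD describes single libraries, and a difference between single libraries of separate tissues varies more than that. A step above the SD is therefore not shown to be a real difference. Cloaca values were read from a column headed cloacal gland, and whether the gland alone was sampled is not known.

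**Figure D1:**
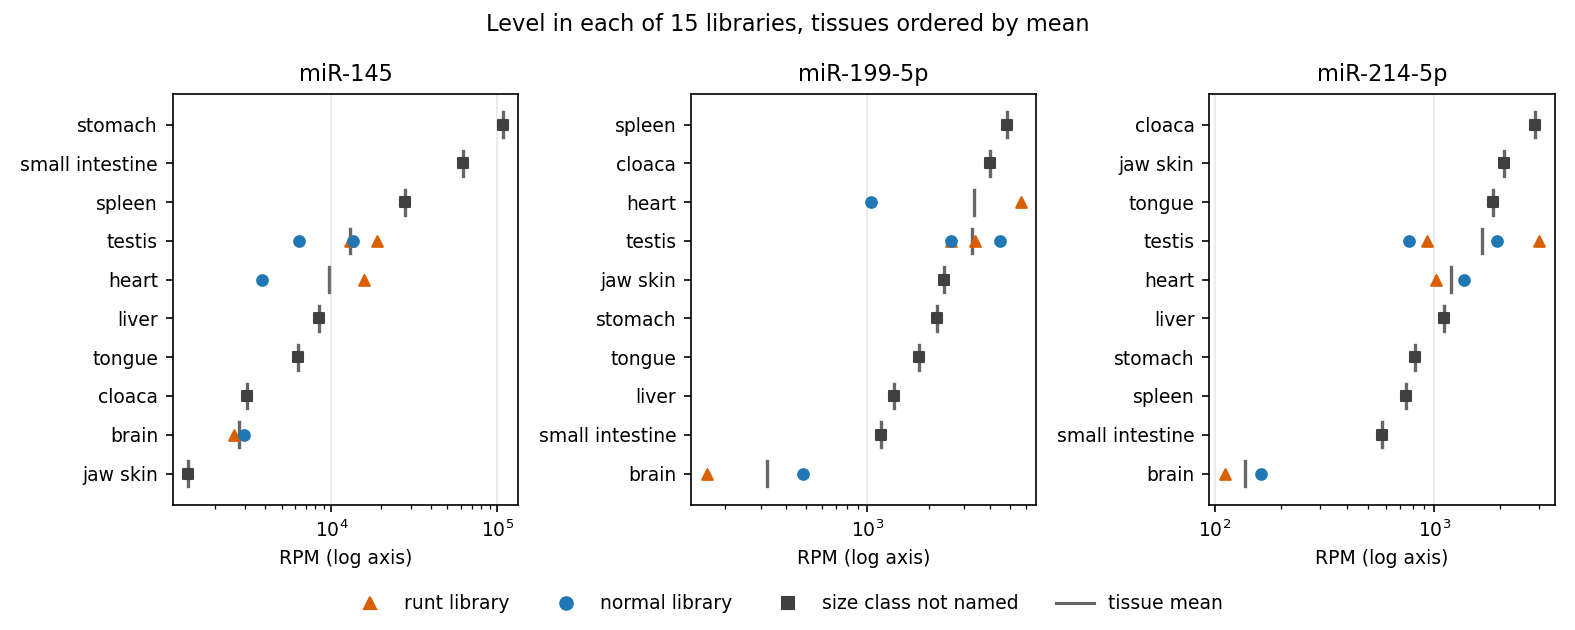
Level of each miRNA (RPM, log axis) in each of the 15 libraries, with tissues ordered by their mean (grey bar) and symbols for the size class named in the column header. miR-145 peaks in stomach (107486 RPM) and small intestine (62441 RPM), while miR-199-5p and miR-214-5p are spread over most tissues and are lowest in brain.

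miR-199-5p and miR-214-5p covered narrower ranges of tissue means than miR-145, and both were lowest in brain. miR-199-5p had 483 RPM in the normal and 163 RPM in the runt brain library. Elsewhere it ran from 1044 RPM in the normal heart library to 5667 RPM in the heart library of the runt, so no other library reached down to the brain values. It had 4871 RPM in spleen, 4009 RPM in cloaca, 2391 RPM in jaw skin, 2206 RPM in stomach, 1804 RPM in tongue, 1346 RPM in liver and 1166 RPM in small intestine. In testis it had 4464 and 2584 RPM in the normal hatchlings and 3389 and 2580 RPM in the runts (3254 ± 892, SD, n = 4). Only the step from small intestine down to brain (1.85 log2) exceeded the pooled SD of 0.96 between libraries of a tissue, and the other 8 steps did not. Which tissue was highest also depended on the scale. It was spleen in RPM, but testis as a share of the listed reads without miR-N444.

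miR-214-5p had 163 RPM in the normal and 111 RPM in the runt brain library. Cloaca was highest with 2881 RPM, followed by jaw skin (2070 RPM) and tongue (1844 RPM). After scaling, cloaca and jaw skin were nearly equal (2069 and 2066). As a share of the listed reads without miR-N444, testis came second to cloaca. Liver had 1110 RPM, stomach 815 RPM, spleen 744 RPM and small intestine 575 RPM. In testis, 1935 and 768 RPM were measured in the normal hatchlings and 924 and 3004 RPM in the runts (1658 ± 1036, SD, n = 4), and in heart 1368 RPM (normal) and 1014 RPM (runt). The lowest of the 13 libraries outside brain was small intestine, so brain stood apart here too. How many of all rows set brain apart as these 2 miRNAs do was not counted. The step from small intestine to brain was 2.06 log2 against a pooled SD of 0.75, and the other 8 steps were within that SD. Such steps can add up over several tissues, as from cloaca (2881 RPM) down to small intestine (575 RPM). Small intestine and stomach, the tissues richest in miR-145, were thus among the 4 poorest in miR-214-5p.

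Testis against brain compared the gonad with neural tissue. All 3 members were higher in testis, where 27.0% of the 319 tested rows were (18.2% were lower, 45.1% in either direction). Every testis library lay above both brain libraries for each member, but the share of all rows that separate in this way was not counted. Both brain libraries were deeper (4760000 and 2110000 estimated reads) than every testis library (at most 1960000), and the part of depth was not tested. The largest fold, 10.1, was that of miR-199-5p (3.33 on the log2 scale, SE 0.84, limma adjusted p = 0.006409). For miR-214-5p it was 9.42 (3.24, SE 0.63, adjusted p = 0.001168), and for miR-145 3.88 (1.96, SE 0.59, adjusted p = 0.01678). The median log2 fold of all tested rows was 0.17. The fit was made over all libraries with tissue as its term, on log2 of scaled RPM plus 1, with p-values adjusted over all tested rows. When the runt brain library was left out, the calls of miR-145 (1.47, adjusted p = 0.1486) and miR-199-5p (2.18, adjusted p = 0.1073) were lost, while miR-214-5p still passed (2.59, adjusted p = 0.02138). That brain library held the lower value of all 3. Without the first or the second runt testis library, which held miRNAs of other organs, all 3 calls remained, with log2 folds of 2.05 to 3.74.

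Heart against brain gave a like contrast, with 7.52% of rows higher in heart, 14.7% lower and 22.3% in either direction. In the same limma fit miR-214-5p was higher in heart by 3.03 on the log2 scale (SE 0.73, adjusted p = 0.01092). For miR-199-5p the fold was 3.02 (SE 0.97, adjusted p = 0.04387). miR-145 had a log2 fold of 1.38 (SE 0.68, 95% interval −0.10 to 2.87, adjusted p = 0.1977) and did not pass. With 2 libraries each, these calls rest on few values. The call of miR-199-5p ended without the heart library of the runt (1.90, adjusted p = 0.2764), the brain library of the runt (2.03, adjusted p = 0.2867), the second runt testis library (2.93, adjusted p = 0.0698) or the second normal testis library (2.97, adjusted p = 0.05897), and that of miR-214-5p ended once the runt brain library was dropped (2.55, adjusted p = 0.07557). Without the normal heart library the value of miR-145 was 2.63 (adjusted p = 0.01652), which rests on the high runt heart library alone, assumed to vary like the libraries of other tissues.

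Testis and heart were not told apart by these miRNAs. The log2 folds of testis over heart were 0.57 for miR-145 (95% interval −0.71 to 1.86), 0.31 for miR-199-5p (−1.52 to 2.14) and 0.21 for miR-214-5p (−1.17 to 1.58), with limma adjusted p of 0.525, 0.8403 and 0.8588. In this comparison 33.9% of rows passed, 23.2% higher and 10.7% lower in testis. Each direction turned when 1 library was left out, for miR-145 and miR-199-5p the normal heart library (−0.61 and −1.07) and for miR-214-5p the runt heart library (−0.10) or the first normal testis library (−0.019). The intervals reach past a log2 fold of 1 on at least one side, so differences of that size remain possible. Testis set against the average of the remaining tissues, where 34.8% of rows passed (27.0% higher, 7.84% lower), gave 0.24 for miR-145 (−0.64 to 1.11), 0.76 for miR-199-5p (−0.49 to 2.02) and 0.52 for miR-214-5p (−0.42 to 1.46), and none passed (adjusted p of 0.735, 0.3546 and 0.41). When testis was set against heart and brain alone, all 3 passed, at 1.34, 1.89 and 1.79 (limma adjusted p of 0.04566, 0.04489 and 0.01308). That fit tested 293 rows, and the share of them that passed is not given here. It weighs brain, the low tissue of miR-199-5p and miR-214-5p, more by construction. In the comparison over all tissues, miR-145 turned direction without the normal heart library (−0.073) or the runt brain library (−0.041). The comparisons with testis share its libraries and are not independent of each other.

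**Figure D2:**
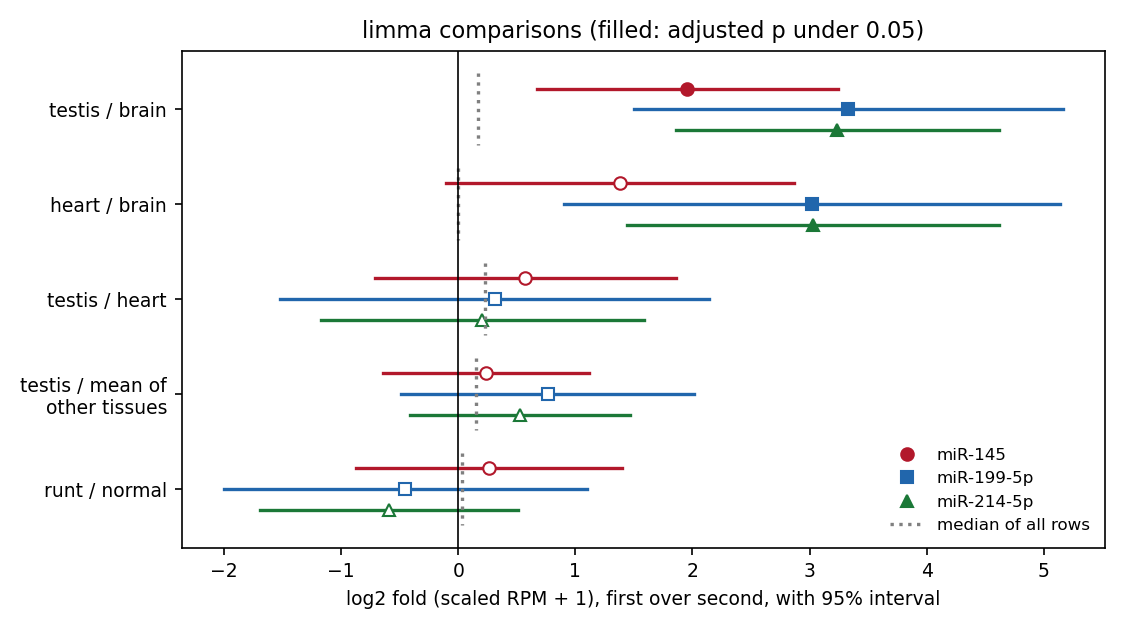
Log2 fold of each miRNA with its 95% interval in 5 limma comparisons, with filled symbols where the adjusted p was under 0.05 and a dotted line at the median of all tested rows. All 3 intervals of testis over brain lie above 0, as do those of miR-199-5p and miR-214-5p for heart over brain, and every other interval drawn includes 0.

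Of the 8 rows of a list of smooth muscle state and fibroblast miRNAs (miR-21, miR-22, miR-29, miR-130, miR-221 and miR-222), 0 were higher in testis than in brain and 2 were lower, beside 27.0% and 18.2% of all tested rows. Their median log2 fold was −0.72, beside 0.17 for all rows. The 2 were miR-221-5p (806 RPM in testis, 4874 RPM in brain) and miR-222a (449 and 4310 RPM), which in mammals promote growth of smooth muscle cells. miR-21-5p, a miRNA of fibroblasts and many growing cells, was highest in small intestine (52079 RPM), spleen (37658 RPM) and liver (22578 RPM). Among markers of other cell types, both rows of gut epithelium (median log2 fold 3.98) and the liver miRNA miR-122-5p (6.06) were also higher in testis than in brain, and all 9 tested neuronal rows were lower (median −4.85). The 4 blood cell rows summed to 2458 to 4370 RPM in testis and to 847 and 923 RPM in brain, 2 of them higher and 1 lower. Of 5 epithelial rows 1 was higher. miR-126-5p of endothelium had 1514 to 2343 RPM in testis and 759 and 1892 RPM in brain, without passing. The part of these cell types in the result was not tested.

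The 3 miRNAs kept no fixed proportion to each other. The ratio of miR-145 to miR-199-5p was 53.6 in small intestine and 48.7 in stomach, had a median of 3.82 over the 15 libraries, and fell below 1 in jaw skin (0.574) and cloaca (0.768). The ratio of miR-145 to miR-214-5p ran from 0.663 in jaw skin to 131.9 in stomach. Over the 10 tissues, log2 levels of miR-145 had Pearson's r of 0.16 with miR-199-5p and −0.20 with miR-214-5p. Over the 15 libraries these were 0.35 and 0.06. Without brain, where all 3 were low, r between miR-145 and miR-214-5p was −0.86 over 9 tissues. Stomach and small intestine lie at one end of that relation and jaw skin and cloaca at the other, each with a single library. These correlations are descriptions over tissues that mostly have 1 library.

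miR-199-5p and miR-214-5p, which come from a shared transcript in mouse, also differed in proportion. Their r over 10 tissues was 0.77, and 0.33 over the 9 tissues other than brain. The ratio of miR-199-5p to miR-214-5p was 6.55 in spleen and 5.59 in the heart library of the runt, but 0.763 in the normal heart library, 0.859 in the second runt testis library and 0.978 in tongue. Libraries of the same tissue could thus lie far apart, since the other testis libraries had 2.31, 3.36 and 3.67. In brain the ratio was 2.97 (normal) and 1.47 (runt). The deeper libraries had the higher ratios. Over 15 libraries the log2 ratio had Pearson's r of 0.71 with log2 of the estimated reads and Spearman's rho of 0.72 with the reads. Over the 13 libraries without the deepest 2, r was 0.69 and rho 0.66. Levels of miR-214-5p itself had a rho of −0.55 with depth and those of miR-199-5p a rho of 0.24, where 90% of rows, given as the 5th and 95th percentile of 319, lay between −0.49 and 0.55. Brain, the lowest tissue of miR-214-5p, had 4760000 (normal) and 2110000 (runt) estimated reads, and the 13 libraries still include the runt brain library. Depth and tissue thus overlap here, and the part of depth in the ratio or in the levels was not tested.

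Between testis and the heart and brain libraries none of the ratios passed, in tests with little power. The log2 ratio of miR-145 to miR-199-5p was 1.92 ± 0.68 in testis (SD, n = 4) and 2.48 ± 1.11 in heart and brain (n = 4), with an exact permutation p of 0.4857 and 0.8571 when adjusted over the 3 ratios. For miR-199-5p to miR-214-5p the values were 1.15 ± 0.96 and 1.05 ± 1.24 (exact p = 0.8857, adjusted 0.8857), and for miR-145 to miR-214-5p 3.08 ± 0.51 and 3.53 ± 1.39 (exact p = 0.5714, adjusted 0.8571). These tests were two-sided, and the smallest p that 4 against 4 libraries allow is 0.02857 before adjustment. After adjustment over the 3 ratios, a ratio that separated completely by itself could not pass. The tests therefore cannot show that the ratios are alike. The heart and brain SD also mixes tissues. The log2 ratio of miR-145 to miR-214-5p was 1.47 (normal) and 3.94 (runt) in heart, and 4.19 (normal) and 4.53 (runt) in brain.

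**Figure D3:**
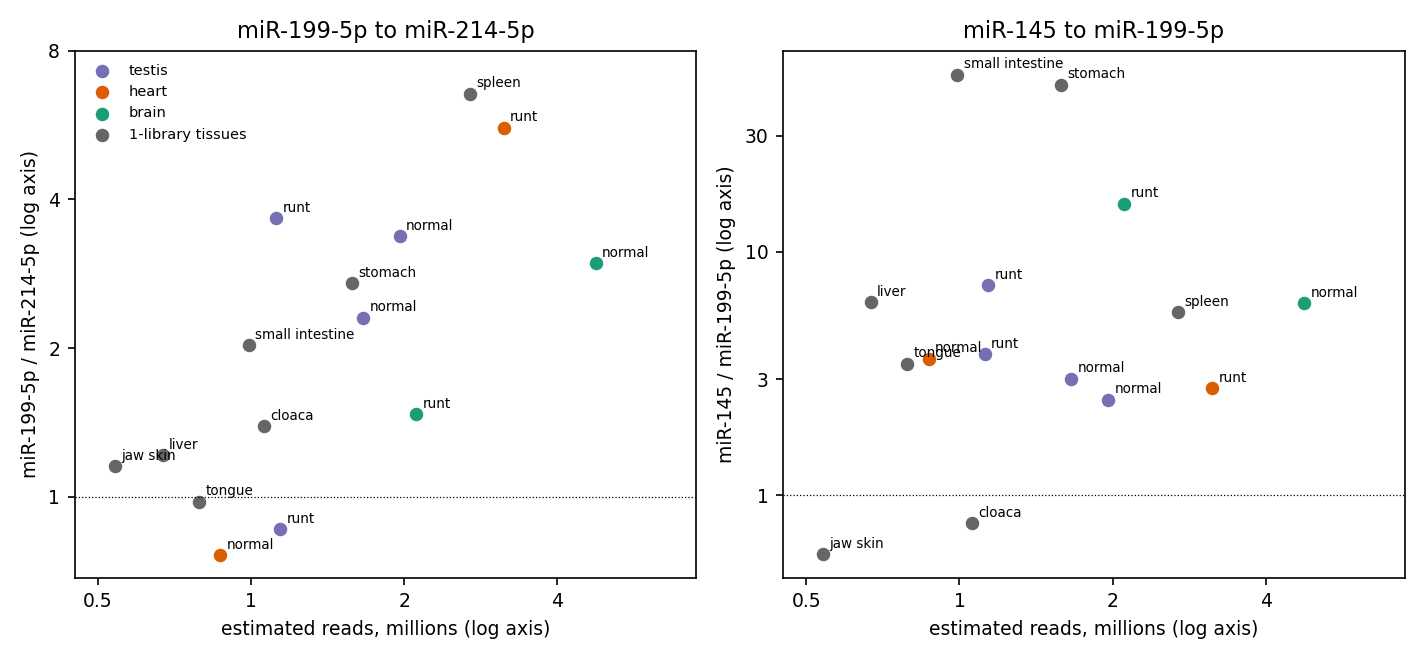
Ratio of miR-199-5p to miR-214-5p (left) and of miR-145 to miR-199-5p (right) in each library against its estimated reads, all on log axes, with a dotted line at equal levels. The left ratio runs from 0.763 to 6.55 and is higher in deeper libraries, and the right ratio is highest in small intestine (53.6) and stomach (48.7).

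A further row, miR-199-5p (b), carries the same mature name with a letter. It followed miR-199-5p in every library, at 0.724 to 0.893 of its level, and had r of 1.00 with it over the tissues. Such a pair may count the same reads, so the second row is not independent evidence. Its values in brain were 364 and 121 RPM, and its log2 fold of testis over brain was 3.54 (SE 0.84, limma adjusted p = 0.004385). None of the 654 rows was named miR-143, the partner of miR-145 in mammals.

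The row whose profile lay closest to that of miR-145 was miR-N1, a row with no family name. Over the 10 tissues their log2 levels had r of 0.97, and over the 15 libraries 0.94. miR-N1 had 133984 RPM in stomach, 125413 RPM in small intestine and 29114 RPM in spleen, and was lowest in jaw skin (1183 RPM), at the same ends as miR-145. The ratio of miR-145 to miR-N1 lay between 0.498 in small intestine and 2.20 in the second runt testis library, a 4.42-fold range, where the ratio to miR-199-5p covered 93.3-fold. It was below 1 in both gut tissues, brain, heart and spleen and above 1 in testis, liver, tongue, cloaca and jaw skin. miR-N1 did not pass in testis against brain (log2 fold 0.46, SE 0.60, limma adjusted p = 0.5966). The next rows for miR-145 were miR-194 (r of 0.82) and miR-215-5p (0.77), both of gut epithelium, with miR-1416 (0.80) and the HOX cluster miRNA miR-10a-5p (0.76). The rows of gut epithelium summed to 73470 RPM in small intestine and 2478 RPM in stomach. For miR-145 these 2 tissues had 62441 and 107486 RPM, or 73013 and 134884 after scaling, each in a single library. Epithelial rows summed to 37493 RPM in stomach and 18307 RPM in small intestine. The part of either set of rows in the levels of miR-145 was not tested.

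For miR-199-5p the nearest row after miR-199-5p (b) was miR-152-3p (r of 0.80, with 131 RPM in brain and 721 RPM in heart). Then came miR-15c-5p (0.80), miR-214-5p (0.77) and miR-210-5p, a miRNA that responds to low oxygen (0.77). The rows nearest to miR-214-5p were miR-193a-3p (0.88) and miR-92-1-5p (0.83), then miR-N368 (0.80), miR-N509 (0.78) and miR-199-5p. miR-193a-3p was highest in jaw skin (3178 RPM) and cloaca (1685 RPM) and lowest in brain (27.6 RPM), which are the ends of the profile of miR-214-5p as well. Likeness was Pearson's r of log2 tissue means over 10 tissues, among rows with at least 10 RPM in 2 libraries.

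**Figure D4:**
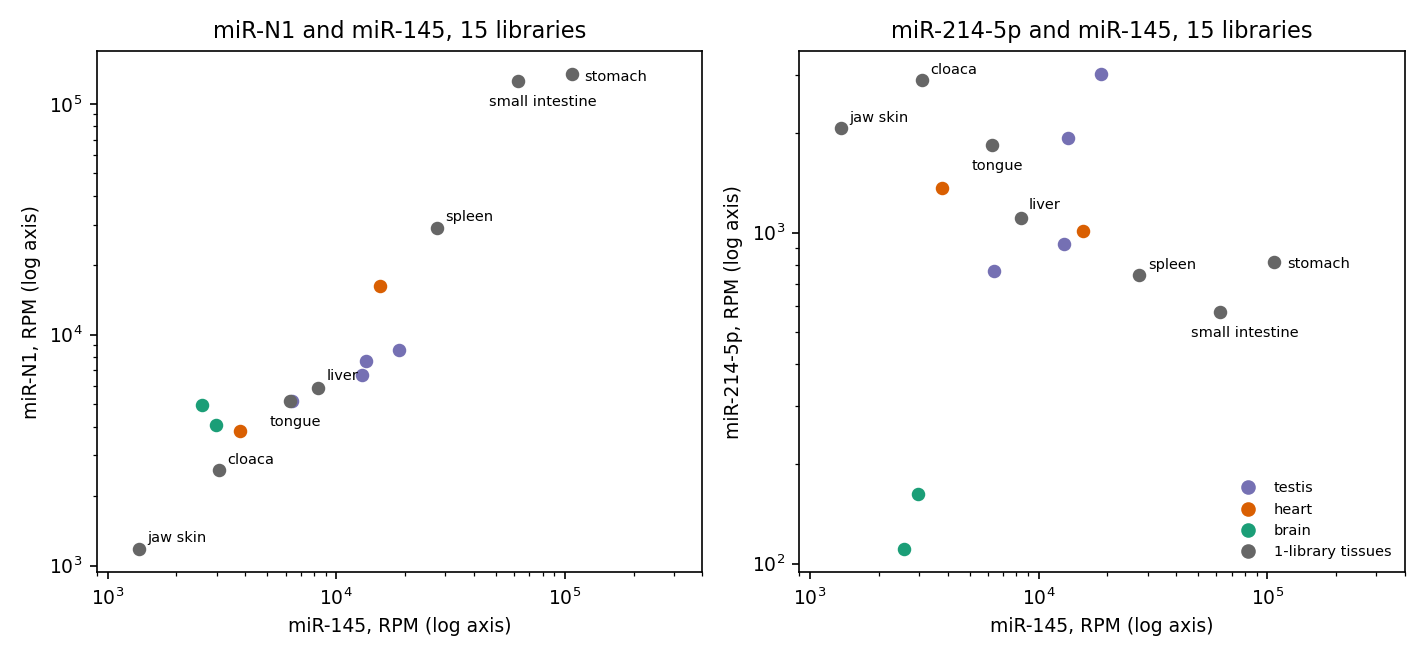
Level of miR-N1 (left) and of miR-214-5p (right) against that of miR-145 in each of the 15 libraries (RPM, log axes), with tissues of a single library named. miR-N1 lies along a line with miR-145 (r of 0.94 on log2 levels), while miR-214-5p had r of 0.06 with miR-145 over the same libraries. miR-214-5p is higher in jaw skin and cloaca than in small intestine and stomach, and is lowest in brain.

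Runts and normal hatchlings were compared because the study asked what differs between animals raised alike. In a fit of 8 libraries from testis, heart and brain that included the tissue, none of the members passed. The limma log2 folds of runt over normal were 0.26 for miR-145 (95% interval −0.88 to 1.40, adjusted p = 0.9062), −0.45 for miR-199-5p (−2.004 to 1.10, adjusted p = 0.881) and −0.59 for miR-214-5p (−1.69 to 0.51, adjusted p = 0.7482). In this comparison 0% of the 293 tested rows passed, with 22 at an unadjusted p under 0.05. The direction of miR-199-5p turned without scaling (0.12) and when the runt brain library was dropped (0.16). That of miR-145 turned without the normal heart library (−0.24) or the heart library of the runt (−0.36).

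In heart and in brain the size classes could be set side by side only as 1 library against 1, with no replicate check. In RPM the runt heart library had 4.11 times the miR-145 and 5.43 times the miR-199-5p of the normal one, but 0.741 times its miR-214-5p. After scaling these were 3.72, 4.91 and 0.671 times. In the same pair of libraries miR-126-5p of endothelium stood at 11283 against 3049 RPM, the 4 blood cell rows at 4135 against 2291 RPM, and the 8 striated muscle rows at 62118 against 64459 RPM. Epithelial rows summed to 1060 against 123 RPM, neuronal rows to 2375 against 1215 RPM, rows of gut epithelium to 118 against 3.45 RPM, and smooth muscle state and fibroblast rows to 11908 against 4904 RPM. miR-122-5p had 920 against 113 RPM, and the depths were 3140000 and 870000 reads. The part of these in the gap was not tested. In brain the runt library was lower in miR-145 (0.866 times in RPM, 0.518 times after scaling), miR-199-5p (0.338 and 0.203 times) and miR-214-5p (0.682 and 0.411 times), so that scaling widened each gap. In testis the size classes overlapped for each member in RPM, but after scaling only for miR-214-5p. With 2 libraries against 2, a row can separate without a real difference. The share of all rows that separate was not counted, so no runt difference is read from this. Scaled miR-199-5p was 4298 and 4890 in the normal and 2763 and 1531 in the runt libraries (log2 difference −1.16, and −0.20 in RPM). Scaled miR-145 was 12966 and 12080 in the normal and 10543 and 11176 in the runt libraries, and its log2 difference turned from 0.75 in RPM to −0.21. These scaled values use factors from all 15 libraries. Over 8 other settings of the runt fit, testis alone among them, miR-145 ran from 0.15 to 0.83 and miR-199-5p from −0.80 to 0.12. All of these settings but testis alone also use heart and brain libraries, so they do not show what scaling does in testis. Testis alone was scaled with factors from its own libraries and lies in these ranges. Its miR-145 was thus higher in runts, unlike the −0.21 above, and its miR-199-5p was no lower than −0.80, beside −1.16. Which factors serve testis better was not tested. Between RPM and values scaled over all 15 libraries, the testis difference of miR-145 turned its sign. That of miR-199-5p kept its sign and changed in size. In the interaction test that follows, heart and brain each give 1 runt and 1 normal library. Only the testis libraries inform its spread, and the runt effects of heart and brain are averaged. For miR-199-5p these effects were 2.295 in heart and −2.298 in brain (log2, after scaling), so they nearly cancel. The test therefore cannot show that the tissues share a runt effect. Whether the runt effect in testis differed from that in heart and brain was tested by interaction, where 1.02% of rows passed (0.341% higher, 0.683% lower), and limma gave −0.75 for miR-145 (adjusted p = 0.2392), −1.23 for miR-199-5p (adjusted p = 0.2928) and 0.35 for miR-214-5p (adjusted p = 0.8192).

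**Figure D5:**
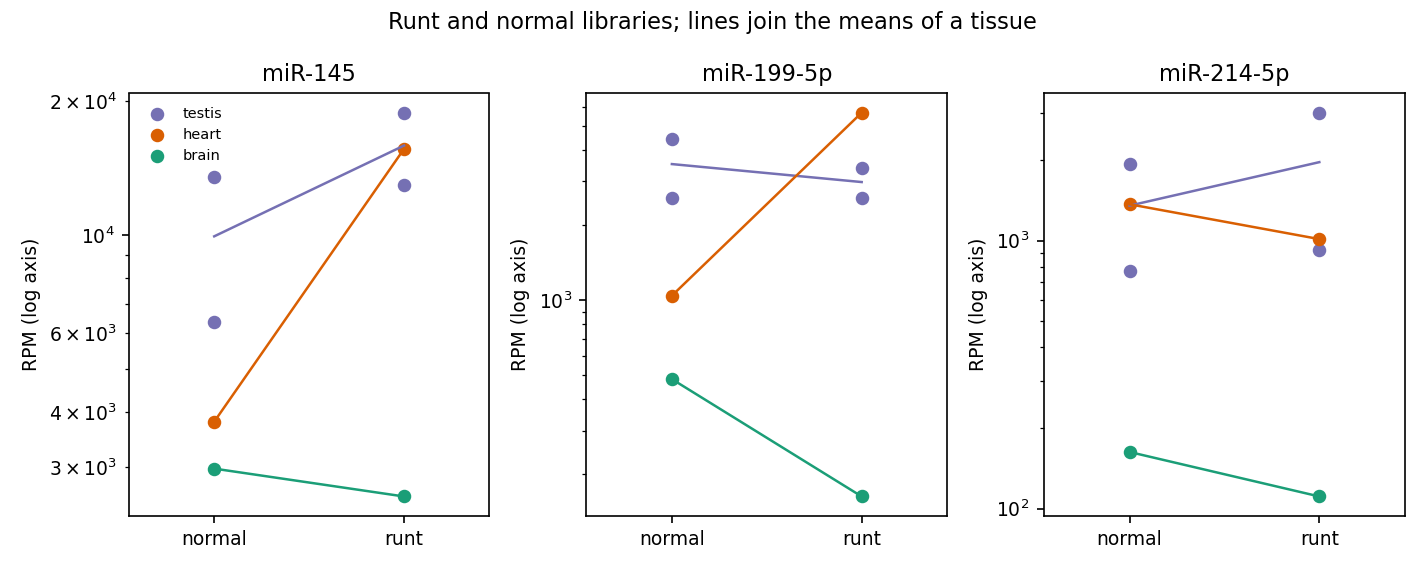
Level of each miRNA (RPM, log axis) in normal and runt libraries of testis (2 and 2 libraries), heart and brain (1 and 1 each), with lines joining the means of a tissue. The heart lines rise for miR-145 (3800 to 15606 RPM) and miR-199-5p (1044 to 5667 RPM) and fall for miR-214-5p. The testis libraries of both classes overlap in RPM, though after scaling with factors from all 15 libraries those of miR-145 and miR-199-5p do not. The share of all rows that separate in this way was not counted.

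The spread within testis depended on the scale used, and not in 1 direction for all members. miR-145 differed 2.95-fold between its lowest and highest testis library in RPM, 1.40-fold as a share of the listed reads without miR-N444, and 1.23-fold after scaling. For miR-199-5p the same ranges were 1.73-fold, 2.19-fold and 3.19-fold, and for miR-214-5p 3.91-fold, 2.80-fold and 2.47-fold. Of the 3 members, miR-145 thus had the narrowest testis range without miR-N444 and after scaling. The range of miR-199-5p was the narrowest in RPM and the widest after scaling. The second runt testis library had the highest testis RPM of miR-145 and of miR-214-5p, but not of miR-199-5p.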

How the data were processed

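Small RNA was sequenced from 60 samples that carry 15 library names, 4 samples for each name, and the table has 1 value column for each, so the 4 could not be compared. The values of 1 other column, which fits no sample's label, were left aside. The deposited values are RPM, as read from the values themselves. Per the file headers they come from the quantifier of miRDeep2, and bedtools 2.26.0, bcl2fastq 2 and Bowtie 1.2.0 are named, per the submitters' processing notes, without their roles. For the genome, no build is given in the sources used here. Listed rows sum to 55.3% to 81.5% of a library's RPM total.

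The worth of 1 read was taken as the smallest value shared by at least 15 rows, refined on values up to 30 reads. Of these low values, 89.1% to 94.2% were whole within 0.1 reads, so no count test was run. Poisson intervals are exact, at 95%. RPM was scaled by a trimmed mean of log ratios (30% and 5% trimmed) and tested as log2(scaled RPM + 1) with limma 3.58.1 in R 4.3.3, two-sided, with an intensity trend, over rows that reached 10 RPM in 2 or more libraries, at an adjusted p of 0.05 (Benjamini-Hochberg). Fold changes on this scale understate those of low rows. Ratios were tested with scipy 1.17.1. The limma steps were tested on simulated data. Size class was read from the column headers. Named rows are the members, rows of their families, and the 5 rows most alike to each member. Members, lists and tests were chosen with earlier results of these data known. A tissue with 1 library does not inform the estimate of spread.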

Additional observations from a re-analysis of the deposited data

Results flagged for a closer look

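In 2 of the 3 miRNAs the runt library lay above the normal one in heart and below it in brain. For miR-145 the log2 difference of runt minus normal was 2.04 in heart and −0.21 in brain, and for miR-199-5p it was 2.44 in heart and −1.56 in brain, in RPM as deposited. Each tissue has 1 library of each size class, so the difference between tissues was not tested, and nothing separates it from the spread between single libraries. For miR-214-5p both tissues had the lower value in the runt library. Within testis, the only tissue with at least 4 libraries, none of the 3 levels and none of the 3 ratios had a library far from the other 3 by Dixon's criterion.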

How the results depend on the processing

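The higher levels in testis than in brain kept their direction and side of the threshold under other pseudocounts, filters and scalings, without the trend and in a fit of testis, heart and brain alone, for all 3 miRNAs. Leaving out 1 library each gave log2 folds of 1.47 to 2.40 for miR-145, 2.18 to 4.45 for miR-199-5p and 2.59 to 3.85 for miR-214-5p. In heart against brain the call of miR-199-5p was lost with a pseudocount of 10 RPM (2.97, adjusted p = 0.0598) and with no filter (3.17, adjusted p = 0.1024), and the cause was not tested. Leaving out 1 library gave 0.46 to 2.63 for miR-145, 1.90 to 4.47 for miR-199-5p and 2.55 to 3.77 for miR-214-5p. In testis against heart it gave −0.61 to 1.503, −1.07 to 1.44 and −0.10 to 0.35. Testis against the averaged remaining tissues passed for all 3 when only heart and brain were the others (1.34, 1.89 and 1.79). That comparison weighs brain more by construction, and the share of all rows passing in it is not given here. With all tissues, leaving out 1 library gave −0.073 to 0.34, 0.41 to 1.12 and 0.23 to 0.62. For runts it gave −0.36 to 0.66, −1.44 to 0.16 and −1.02 to −0.36, and miR-199-5p turned without scaling (0.12), which moved the median of all rows from 0.03 to 0.54. Ratios without 1 library ran from −0.90 to −0.06 (miR-145 to miR-199-5p), −0.38 to 0.58 (miR-199-5p to miR-214-5p) and −1.14 to −0.12 (miR-145 to miR-214-5p). No paired analysis was possible because the columns carry no replicate numbers.

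Counts of rows passing moved between settings, which also tested unlike numbers of rows. Tissue comparisons tested 319 rows, 184 with a 50 RPM filter, 654 with no filter and 293 in testis, heart and brain alone. The runt and interaction fits tested 293, 171 with a 50 RPM filter and 651 with no filter, and the runt fit 234 in testis alone. Leaving out 1 library changed these numbers too. The counts below are not shares, so a moved count need not mean a moved share. Testis over brain gave 86 higher and 58 lower rows, against 42 and 34 with a 50 RPM filter, 102 lower with no filter and 25 lower without the brain library of the runt. Testis over heart gave 74 higher rows, or 34 with a 50 RPM filter. Heart over brain gave 24 higher and 47 lower, or 30 lower with a 50 RPM filter and 8 to 28 higher and 11 to 45 lower without 1 library. Testis over the mean gave 86 higher and 25 lower, against 130 higher (no filter), 35 higher (50 RPM), 13 lower (no scaling), 51 lower (heart and brain only) and 13 to 37 lower without 1 library. Runts gave 0 and 0, against 7 higher and 5 lower in testis alone, 1 higher without scaling and up to 6 higher and 3 lower without 1 library. The interaction gave 1 higher and 2 lower, 4 and 12 with no filter, 2 higher with a 50 RPM filter and 0 without scaling or trend, in alternatives chosen after seeing the data.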
